A study of Mus musculus with 14 samples.

Results

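The 9 genes described here, Ptch1, Smo, Boc, Hhip, Sufu, Gli1, Gli2, Gli3 and Mycn, belong to the Sonic hedgehog pathway. They were taken by symbol from the 31054 genes of the count matrices, and all 9 were present. Single TdTomato-positive, DAPI-negative cells of the mouse hindbrain were sorted and sequenced at E14.5 and E18.5, with 3 control and 3 mutant libraries at each stage, 1 embryo per library. At P5 the pontine nuclei were dissected and their TdTomato-positive, DAPI-negative cells sorted, with 2 control libraries each pooled from several pups. Controls were Atoh1Cre/+ with Rosa lsl-tdTomato/+, and mutants, called Atoh1S193A/-, carried Atoh1Cre/S193A with the same reporter, all on C57BL/6J. Cre takes the place of the Atoh1 coding region, so both genotypes have 1 null Atoh1 allele and the control is heterozygous. The reporter marks cells that have expressed Atoh1, including descendants that no longer do so. A mutant and a control littermate shared a replicate number, the P5 tissue had no mutant library, and the embryonic tissue included the cerebellar rhombic lip lineage.

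Sonic hedgehog is a secreted ligand. In its absence the receptor Ptch1 holds the transducer Smo inactive, and Sufu retains the Gli transcription factors. Ligand binding, helped by coreceptors such as Boc, releases Smo and shifts the Gli proteins towards activation, with Gli1 and Gli2 acting mainly as activators and Gli3 mainly as a repressor. Gli1, Ptch1 and the decoy receptor Hhip are transcribed in response to the pathway, and Mycn is a target that acts in dividing cells. In the cerebellum, ligand from Purkinje cells drives the division of granule cell progenitors, in which Atoh1 is known to regulate Gli2, whereas pontine neurons arise from Hox-positive progenitors of the caudal rhombic lip.

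The upstream windows of Gli2, Ptch1 and Gli3 are shown because Gli2 and Ptch1 were among the genes with the largest change between stages in granule progenitors, while the level of Gli3 separated the progenitor pools. Each window is the 250 bases before the RefSeq start on GRCm38.p6, written 5′ to 3′ on the strand of the gene, and capitals mark every match to CANNTG, the general E-box that basic helix-loop-helix factors such as Atoh1 recognise. Windows were matched for 7 of the 9 genes, all but Gli1 and Boc.
Gli2, chr1:119053620-119053869, minus strand: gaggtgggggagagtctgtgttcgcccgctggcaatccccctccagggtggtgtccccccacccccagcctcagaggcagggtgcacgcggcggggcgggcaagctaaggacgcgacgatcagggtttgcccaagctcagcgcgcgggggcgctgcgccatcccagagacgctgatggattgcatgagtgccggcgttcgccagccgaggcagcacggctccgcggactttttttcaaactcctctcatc
Ptch1, chr13:63565736-63565985, minus strand: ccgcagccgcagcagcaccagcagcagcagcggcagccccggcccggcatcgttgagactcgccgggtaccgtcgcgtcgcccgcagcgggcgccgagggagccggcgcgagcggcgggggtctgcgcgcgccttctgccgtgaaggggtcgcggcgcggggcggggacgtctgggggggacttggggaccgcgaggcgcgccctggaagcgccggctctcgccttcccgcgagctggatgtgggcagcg
Gli3, chr13:15463473-15463722, plus strand: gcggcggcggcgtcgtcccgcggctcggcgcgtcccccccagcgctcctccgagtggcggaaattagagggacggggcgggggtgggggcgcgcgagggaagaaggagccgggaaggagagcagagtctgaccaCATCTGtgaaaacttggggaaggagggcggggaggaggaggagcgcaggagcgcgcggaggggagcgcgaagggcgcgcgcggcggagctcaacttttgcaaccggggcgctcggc
The only match among the 3 windows lay upstream of Gli3, where CATCTG is CAGATG read on the other strand. CANNTG, which also covers CAGATG and CAGCTG, occurred in 66.2% of 32851 RefSeq promoter windows of 300 bases searched on both strands, and CAGATG in 14.4%. GACCACCCA, the consensus of Gli proteins, occurred in 0.225% of those windows and in none of the 7 upstream windows. In the mm10 annotation Ptch1 spanned chr13:63508328-63573598 on the minus strand and Gli3 chr13:15463235-15730026 on the plus strand, so that both windows fell within introns of longer annotated transcripts, and that of Gli3 also overlapped an exon of the antisense noncoding gene Gm6556. Gli2 spanned chr1:118834132-119053619 on the minus strand, and its window lay just outside the gene. The other genes lay at chr10:127329882-127341974 (Gli1, minus strand), chr6:29735503-29761365 (Smo, plus), chr16:44485049-44558897 (Boc, minus), chr8:79965851-80058006 (Hhip, minus), chr19:46396896-46488804 (Sufu, plus) and chr12:12936093-12941914 (Mycn, minus).

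The 14 libraries held 1.08e+08 to 2.37e+08 unique molecular identifiers (UMIs, each a captured transcript), with a median of 8433 to 18507 per barcode, and 80250 of 150188 barcodes were kept. Clusters were formed without the hedgehog genes and named from their markers, so each name below stands for cells resembling that type. At E14.5 there were 1428 dividing Hox-positive pontine progenitors, 5969 non-dividing Hox-positive pontine cells, 4240 Hox-negative granule progenitors, 1462 granule neurons, 2481 Hox-negative Msx1-positive rhombic lip cells and 573 glia. At E18.5 there were 3255 Hox-positive pontine cells, 12901 granule progenitors, 9667 granule neurons and 332 glia, and no cluster of dividing pontine progenitors was found. Pax6 and the sum of Hoxb2 to Hoxb5 were among the naming markers, so their levels describe the clusters and do not check the names. Hoxb3 averaged 166 CPM (UMIs scaled to a common total per library and population) in pontine progenitors of control embryos. It averaged 5.05 CPM in E14.5 granule progenitors, and Pax6 stood at 632 CPM in pontine and 592 CPM in granule progenitors. Pontine progenitors also carried more Sox2, at 343 against 40.3 CPM, and more Fabp7, at 629 against 99.5 CPM, so glial and early progenitor markers moved with the comparison of the pools, and their part in it was not tested. Summed neuron markers went the other way, at 418 CPM in pontine and 2821 CPM in granule progenitors of E14.5, and their part was not tested either. Atoh1 counts could not check the genotype labels, since S193A alters 1 codon and 3′ UMIs do not tell the alleles apart. Pontine progenitors held 233, 199.7 and 131 CPM in controls 1, 2 and 3 and 157, 170.3 and 119 CPM in mutants.

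The earliest difference was between the progenitor pools at E14.5, which asks how Hox-positive pontine and Hox-negative granule progenitors differed in the pathway before the main wave of granule cell division. UMIs were summed per library and population and compared with edgeR's quasi-likelihood test within embryos, limited to genes detected in 10% or more of the cells on 1 side or both, and a gene was called at an adjusted p below 0.05 with a log2 change above 0.25 in size. A gene that reaches 10% of cells on 1 side only is nearly bound to differ, so in later comparisons such genes are given by their values and kept out of the counts, although the shares of all genes and the counts of other pathway genes include them. Of 7 tested genes, 3 were higher and 3 lower in granule progenitors, against 15.1% higher and 14.9% lower of all 10274 genes tested, 30.1% in all. Boc and Sufu were higher in granule progenitors together with Mycn, whereas Gli3, Ptch1 and Smo were higher in pontine progenitors.
Gli3, the main Gli repressor, stood at 63.6, 48.1 and 49.2 CPM in pontine progenitors of controls 1, 2 and 3 and at 27.1, 20.998 and 25.9 CPM in granule progenitors. The ranges did not overlap, and the level in pontine progenitors was 2.19-fold higher (log2 change −1.13 from pontine to granule progenitors, adjusted p = 2.6e-06). Boc showed the opposite order, with 6.84, 11.3 and 4.36 CPM in pontine and 35.4, 27.6 and 28.2 CPM in granule progenitors. That difference of 3.73-fold (log2 1.90, adjusted p = 7e-06) was called in every alternative that was run, as was that of Gli3. The size for Gli3 depended on the granule pool. With granule progenitors limited to clusters of at least 100 CPM of Mki67, Gli3 differed by less (log2 −0.70) and Boc by log2 1.88. This alternative was added after the data were seen. The Msx1-positive rhombic lip cells were low in Hox genes but not without them. Their summed Hox markers reached 66.9 CPM, against 29.7 CPM in granule and 756 CPM in pontine progenitors. These cells carried Boc at 33.4, 33.4 and 28.1 CPM, 3.80-fold above pontine progenitors. Their Gli3 stood at 56.9, 49.5 and 54.2 CPM, a level whose difference from pontine progenitors was not called (log2 0.06). Of 7 genes, 3 were lower and none higher in pontine progenitors than in these rhombic lip cells, a comparison added after the clusters were seen, against 8.65% of all genes lower and 9.53% higher, 18.2% in all. Boc was called in each alternative, and Gli2 and Mycn, the other genes called, were lost in several. In the mutant libraries Ptch1 was called higher in pontine progenitors (log2 0.80, adjusted p = 0.0020), as it was without control replicate 1.
Ptch1, the receptor and a transcriptional target, stood at 27.3, 52.8 and 36.1 CPM in pontine progenitors and at 24.8, 17.8 and 26.1 CPM in granule progenitors. The difference was called (log2 −0.81, adjusted p = 0.0052) but was lost without control replicate 2, the highest library, and it was larger in the mutant embryos (log2 −1.34). Smo, at 58.8, 63.3 and 69.1 against 44.0, 53.8 and 52.1 CPM, differed by less (log2 −0.36, adjusted p = 0.018). It was not called by DESeq2, without control replicate 1, without control replicate 3 or without the embryo as a block. Sufu, the inhibitor that retains Gli proteins, was lower in pontine progenitors at 8.20, 8.60 and 8.71 CPM than in granule progenitors at 13.1, 13.5 and 13.9 CPM (log2 0.66, adjusted p = 0.029), a call that was lost with any single control left out. Mycn overlapped between the pools, with 114, 62.9 and 59.7 CPM in pontine and 178, 87.2 and 89.9 CPM in granule progenitors, yet it was higher in granule progenitors of each embryo (log2 0.55, adjusted p = 0.00018), a call lost without the embryo as a block. The difference of Gli2 did not pass the threshold (log2 0.67 ± 0.26 SE, adjusted p = 0.066), with 4.10, 7.43 and 6.22 CPM against 8.83, 8.89 and 11.7 CPM. It was called in 3 of 11 alternatives, among them that with granule progenitors limited to clusters high in Mki67 (log2 0.76).
Gli1 was too low for the test in either pool. It had 0, 13 and 0 UMIs in pontine progenitors of controls 1, 2 and 3, or 5.08 CPM in control 2, and a count of 0 allowed up to 2.05 CPM in control 1 and 1.87 CPM in control 3. The 3 mutant libraries, which held more of these cells, had 17, 16 and 51 UMIs, or 2.28, 2.25 and 4.55 CPM. Granule progenitors had 6, 1 and 6 UMIs of Gli1 in controls, or 0.541, 0.129 and 0.285 CPM, so that any difference in controls rested on a single library. Hhip stayed at or below 1.37 CPM in pontine progenitors of controls.
Among 44 other pathway genes present in the files, 28 were tested, and 7 were higher and 2 lower in granule progenitors, while 15.1% and 14.9% of all genes tested went each way. The D-type cyclins that act downstream of hedgehog moved apart: Ccnd2 was higher (log2 5.72) and Ccnd1 lower (log2 −3.81) in granule progenitors. The coreceptors did so too, as Gas1 was higher (log2 1.20) and Cdon lower (log2 −3.99), with mean levels of Cdon of 109 CPM in pontine and 6.72 CPM in granule progenitors.

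**Figure D1:**
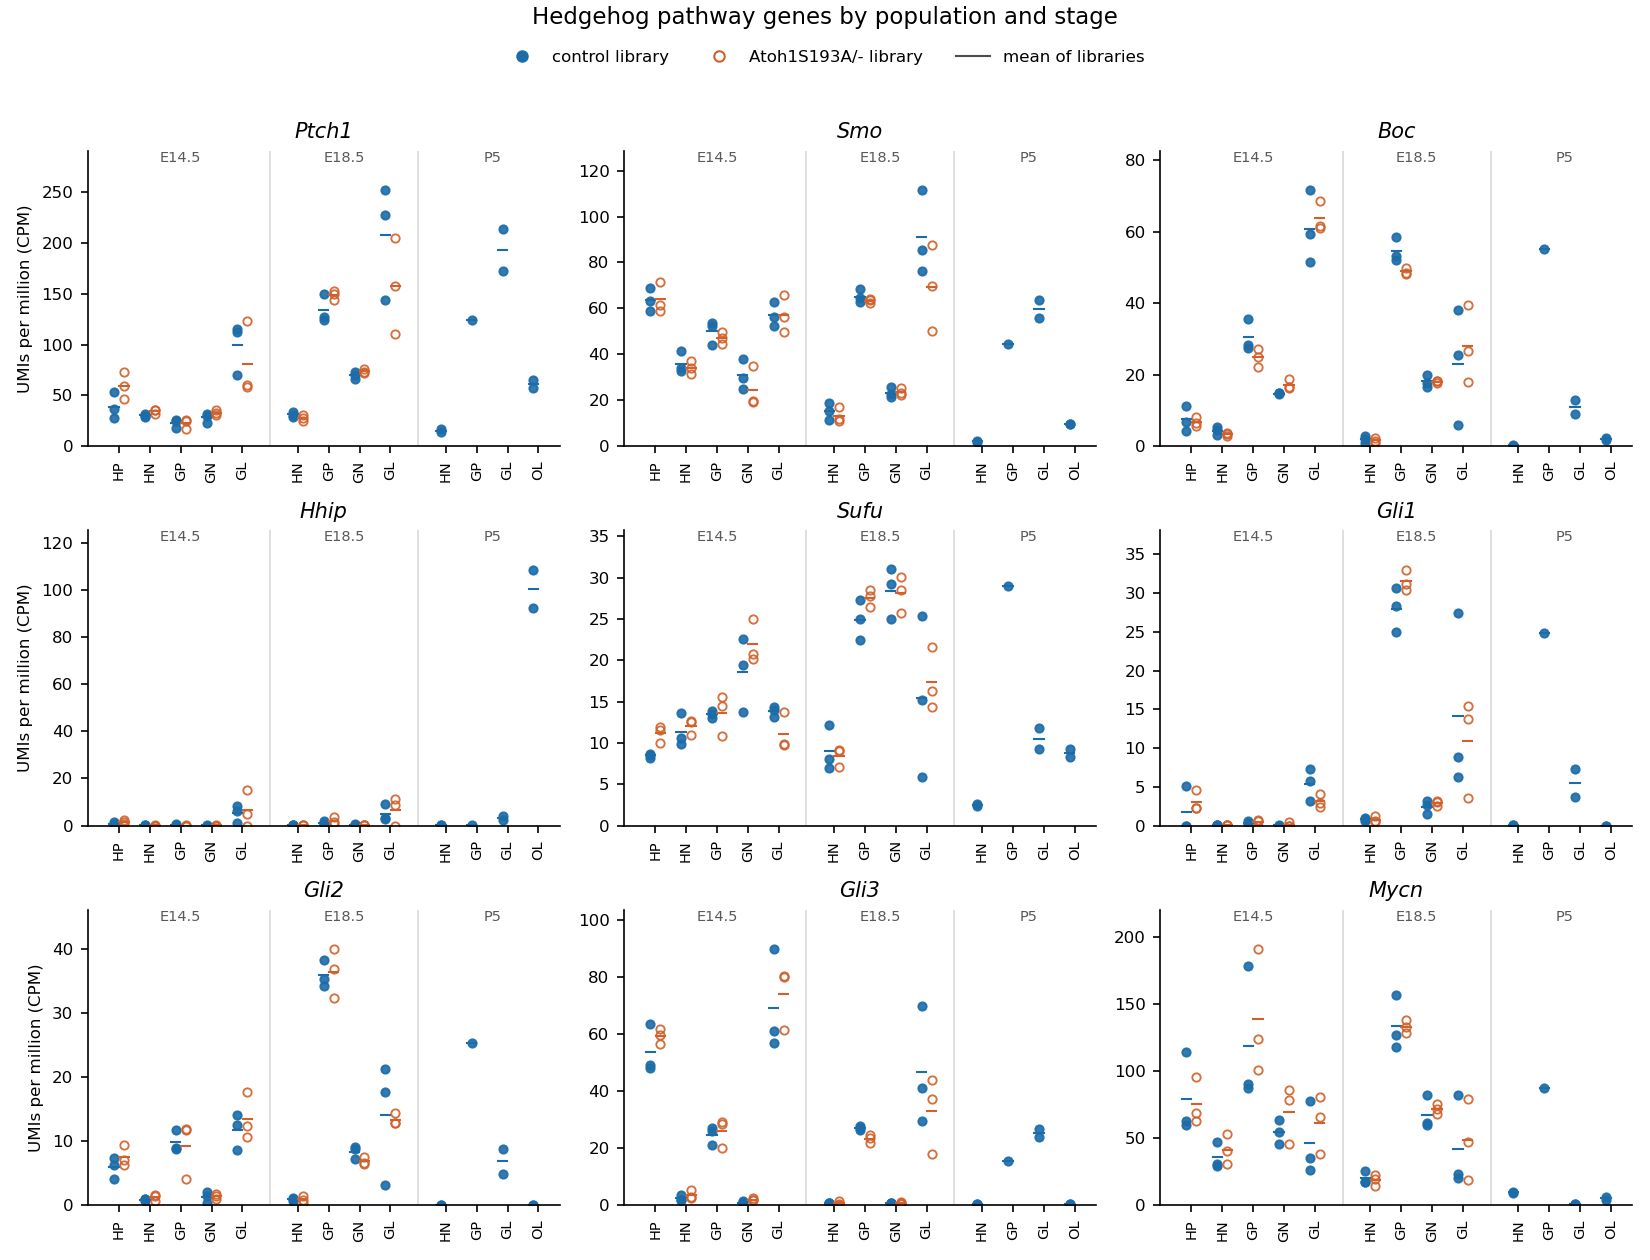
Level of each of the 9 genes (CPM, 1 panel per gene) by stage and cell population, with 1 point per library, filled for control and open for mutant, and the mean as a line. HP are dividing pontine progenitors, HN non-dividing pontine cells, GP granule progenitors, GN granule neurons, GL glia and OL the oligodendrocyte lineage. Gli1 is near 0 in every E14.5 neuronal population and reaches 25.0 to 33.0 CPM in E18.5 granule progenitors, and Gli3 is below 6 CPM in non-dividing pontine cells and granule neurons at both stages.

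Progenitors were then compared with the non-dividing cells of their lineage at E14.5. Gli2 and Gli3 did not reach 10% of the non-dividing cells and are given by their levels, with no count. Of the 5 genes that reached it on both sides, 3 were higher and 1 was lower in granule progenitors than in granule neurons, where 31.9% of all genes were higher and 31.6% lower, 63.5% in all. Of the 4 genes that reached it in pontine progenitors and non-dividing pontine cells, 3 were higher in the progenitors and none lower, where 32.6% of all genes were higher and 33.9% lower, 66.5% in all. Gli3 stood at 1.45, 0 and 1.07 CPM in granule neurons and at 3.46, 1.95 and 1.82 CPM in pontine cells. Gli2 stood at 1.45, 0.363 and 2.01 CPM in granule neurons and at 1.02, 0.886 and 0.636 CPM in pontine cells. Mycn was higher in both progenitor pools by log2 1.07 and 1.14. Within the non-dividing pontine cells, clusters with low Mapt, a gene of maturing neurons, kept 8.13, 6.51 and 5.69 CPM of Gli3, and clusters with high Mapt had 0.943, 0.203 and 0.488 CPM.
Boc was higher in granule progenitors than in granule neurons by log2 1.07. Ptch1 did not differ by a called amount between granule progenitors and neurons at E14.5 (log2 −0.25, adjusted p = 0.060), although it was called lower in the progenitors in the mutant libraries (log2 −0.45) and with granule progenitors limited to clusters high in Mki67 (log2 −0.35). Granule neurons had 31.3, 23.2 and 30.0 CPM, and pontine cells had a similar 30.1, 31.8 and 28.7 CPM. Pontine progenitors were higher in Ptch1 than those cells by log2 0.39, a call lost in 5 alternatives, among them the fit without control replicate 2. Smo was higher in both progenitor pools (log2 0.76 and 0.83), and Sufu was lower in granule progenitors than in granule neurons (log2 −0.44), a call lost without the embryo as a block. Between granule neurons and pontine cells, 2 of the 4 genes at the filter on both sides were higher in granule neurons and none was lower, against 14.2% and 14.7% of all genes, 28.9% in all. These were Sufu (log2 0.77) and Mycn (log2 0.67), whose call was lost in the mutant libraries (log2 0.72, adjusted p = 0.086). Boc, which passed the filter through granule neurons alone, stood at 14.8, 14.9 and 14.48 CPM there against 5.30, 4.37 and 2.97 CPM.
Glia, which were few, carried the highest E14.5 levels of Ptch1 and Boc. Their summed progenitor markers reached 5448 CPM and their dividing-cell markers 2721 CPM, with Aqp4 of astrocytes at 14.7 CPM, and the part of these in the comparison was not tested. Their Ptch1 stood at 70.3, 112 and 115 CPM, 4.02-fold above granule progenitors, and Gli1 at 3.11, 5.77 and 7.35 CPM. In that comparison, added after the clusters were seen, 1 gene was higher and 3 were lower in granule progenitors, against 17.2% and 17.8% of all genes, 35.0% in all. Gli3 and Boc were the others that were lower (log2 −1.39 and −0.92), and Mycn was higher (log2 1.46). The levels of the glia depended on the clustering: at Leiden resolution 2 their mean Ptch1 was 259.8 CPM instead of 99.1 CPM, Gli3 38.5 instead of 69.1 CPM, Mycn 16.9 instead of 46.4 CPM and Gli2 6.41 instead of 11.7 CPM.

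The stages were compared in granule progenitors and in pontine cells. From E14.5 to E18.5, 5 of the 7 genes at the filter in both stages rose in control granule progenitors and none fell, where 21.9% of all 10055 genes rose and 21.3% fell, 43.2% in all.
Gli1 had 13 UMIs over the 3 libraries at E14.5 and 1552, 1089 and 881 UMIs, or 30.6, 28.3 and 25.0 CPM, at E18.5. It passed the filter on low values only through the later stage and is not counted among the 5, and the fitted ratio of 81.4 (log2 6.35) rests on those 13 UMIs at the low end. Ptch1 rose 5.55-fold (log2 2.47, 95% interval 2.15 to 2.79, adjusted p = 1.7e-05), from 24.8, 17.8 and 26.1 CPM to 149.8, 127 and 124 CPM. Both are known transcriptional targets of the pathway.
Gli2, the main activator upstream of Gli1, rose 3.46-fold to 38.2, 35.2 and 34.2 CPM (log2 1.79, interval 1.48 to 2.10, adjusted p = 5.9e-05). Sufu rose 1.78-fold to 27.4, 25.0 and 22.5 CPM (adjusted p = 0.00054) and Boc 1.74-fold to 58.6, 53.3 and 52.0 CPM (adjusted p = 0.00065). The rise of Smo was smaller (log2 0.33, interval 0.10 to 0.56, adjusted p = 0.028), with 68.2, 64.3 and 62.7 CPM at E18.5, and was lost in 5 alternatives. Gli3 stood at 27.1, 27.7 and 26.5 CPM at E18.5 and showed no called change (log2 0.08, interval −0.17 to 0.32). Mycn also showed none (log2 0.13, interval −0.41 to 0.68), at 157, 118 and 127 CPM, although its rise was called without E14.5 control replicate 1 and in the libraries of 1 Cell Ranger release (log2 0.48). Hhip reached 2.09, 0.547 and 0.539 CPM and was below the filter at both stages.
Mki67, a gene of dividing cells, was also higher in the later granule progenitors, with a mean of 580 CPM against 204 CPM at E14.5. In an alternative added after the data were seen, only granule progenitor clusters with at least 100 CPM of Mki67 were kept at each stage. The 5 rises were called again there, and Gli3 was lower at E18.5 (log2 −0.34). Of control cells, 935 of 1922 were kept at E14.5 and 5894 of 6263 at E18.5. This floor did not match Mki67 between stages, so its part in the rises was not tested. The rises of Gli2 and Ptch1 were also called in mutant embryos (log2 1.83 and 2.64), where the change of Gli1 was log2 5.84. The 2 E14.5 controls processed with an older Cell Ranger release entered the stage comparison on 1 side only. Restricted to libraries made with the newer release, which leaves 1 E14.5 control that is assumed to vary like the E18.5 controls, the changes were log2 6.51 for Gli1, 1.52 for Gli2 and 2.26 for Ptch1, and Smo was not called (log2 0.23).
Of 31 other pathway genes tested, 11 rose and 2 fell, against the 21.9% and 21.3% of all genes given above. The risers included the ciliary scaffold genes Evc and Evc2 (log2 0.78 and 0.93) and the cell cycle genes Cdk6 and Ccnd1 (log2 3.78 and 1.87). The coreceptor Gas1 and Bcl2 fell (log2 −0.77 and −0.66). The ligand Shh itself averaged 0.0633 CPM at E14.5 and 0.0284 CPM at E18.5 in granule progenitors, and 28.7 CPM at E14.5 (18.1 to 35.5 CPM) and 13.4 CPM at E18.5 (0 to 35.2 CPM) in glia.

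**Figure D2:**
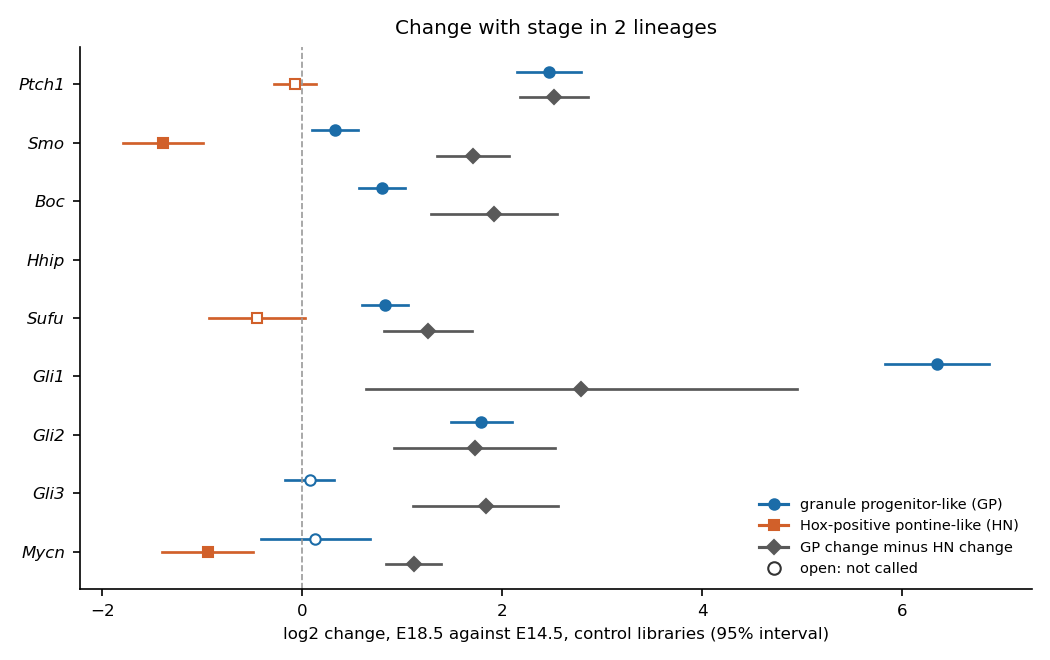
Log2 change from E14.5 to E18.5 in control libraries for each tested gene, in granule progenitors, in Hox-positive pontine cells and as the difference of these changes, with 95% confidence intervals as bars. In granule progenitors Ptch1 stands at 2.47 and Gli2 at 1.79, and Gli1, which reached the filter on low values only at E18.5, at 6.35, while pontine cells show Smo at −1.39 and Ptch1 at −0.07.

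In pontine cells, of 4 tested genes, 2 fell and none rose, while 30.6% of all genes fell and 31.9% rose, 62.5% in all. Smo fell 2.62-fold, from 33.9, 41.3 and 32.6 to 15.1, 18.8 and 11.5 CPM (log2 −1.39, interval −1.79 to −0.99, adjusted p = 0.00017), and Mycn fell 1.93-fold to 25.5, 17.1 and 17.4 CPM (adjusted p = 0.0029). Ptch1 was at 33.8, 30.8 and 28.8 CPM at E18.5 and its change was close to 0 (log2 −0.07, interval −0.29 to 0.14), while in mutant libraries a fall was called (log2 −0.35, adjusted p = 0.022). Gli1 had 1 UMI in each E14.5 library and 9, 7 and 9 UMIs at E18.5, which is 0.543 to 1.03 CPM.
Mapt was also higher in pontine cells at E18.5, with a mean of 1919 CPM against 651 CPM, and its part in the change was not tested. Among clusters of intermediate Mapt, Smo was at 37.5, 38.9 and 36.2 CPM at E14.5 and 33.6, 49.5 and 31.2 CPM at E18.5, ranges that overlapped. Among clusters of high Mapt it was at 28.3, 40.7 and 25.7 CPM and then at 10.58, 11.8 and 9.35 CPM, ranges that did not. Mean Mycn of controls went from 43.6 to 35.7 CPM at intermediate Mapt and from 22.7 to 16.9 CPM at high Mapt. Clusters of low Mapt, with a mean of 45.6 CPM of Mycn, were found at E14.5 only. Sufu was not called in controls (log2 −0.45, adjusted p = 0.089), and its fall was called in mutant libraries (log2 −0.57, adjusted p = 0.0096).
The stage effect in granule progenitors differed from that in pontine cells for the 4 genes at the filter in both, Ptch1, Smo, Mycn and Sufu, each more positive in granule progenitors, in a fit added after the data were seen in which 24.3% of all genes were more positive there and 26.6% less, 50.9% in all. The difference was 2.52 on the log2 scale for Ptch1 (interval 2.18 to 2.85), 1.71 for Smo, 1.26 for Sufu and 1.11 for Mycn. Gli1, Gli2, Gli3 and Boc were below the filter in pontine cells at both stages, and their differences are no support for this pattern. That of Gli1 had 3 UMIs in all pontine cells of the E14.5 controls behind it and was called in only 5 of 15 alternatives.

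At E18.5 granule progenitors were compared with granule neurons. Of the 5 genes at the filter on both sides, 4 were higher in granule progenitors and none lower, with 37.6% of all genes higher and 36.9% lower, 74.5% in all. These were Smo (log2 1.63), Boc (1.73), Mycn (1.13) and Ptch1 (1.08). Gli1, Gli2 and Gli3 passed the filter through the progenitors, and neurons stood at 0.795, 0.709 and 0.653 CPM for Gli3, at 3.14, 2.62 and 1.49 CPM for Gli1 and at 9.05, 8.83 and 7.19 CPM for Gli2. Ptch1 was 2.11-fold higher in progenitors, but granule neurons kept 69.7, 72.9 and 66.3 CPM. Sufu did not differ by a called amount (log2 −0.05), with 31.1, 29.2 and 25.0 CPM in neurons.
Within the granule neurons, the clusters with less Mapt held 5.77, 4.51 and 3.12 CPM of Gli1 and 17.1, 15.8 and 14.4 CPM of Gli2. Those with more Mapt held 0.851, 0.665 and 0.391 CPM of Gli1 and 2.06, 1.66 and 2.27 CPM of Gli2. Ptch1 differed less between them, at 83.9, 82.3 and 79.4 CPM with less Mapt and 57.4, 63.1 and 57.4 CPM with more.
Granule neurons exceeded pontine cells in each of the 4 genes at the filter on both sides, where 28.5% of all genes were higher and 28.9% lower, 57.5% in all. Mycn differed by log2 1.73, Sufu by 3.13-fold, Ptch1 by 2.20-fold and Smo by log2 0.63, and Boc, at the filter in granule neurons alone, stood at 16.7 to 19.8 against 0.899 to 2.87 CPM. In clusters of intermediate Mapt, mean Smo of controls was 36.4 CPM in granule neurons and 38.1 CPM in pontine cells. At high Mapt it was 11.9 and 10.6 CPM. Mean Ptch1, Sufu and Mycn were higher in granule neurons at both levels of Mapt. The part of Mapt in these differences was not tested. In a comparison with glia, 3 of the 4 genes at the filter on both sides were lower in pontine cells and none higher, with 25.3% of all genes lower and 26.9% higher, 52.2% in all. They were Ptch1 (log2 −2.69), Smo (−2.54) and Mycn (−0.78, a call lost in 5 alternatives). Gli1, Gli2, Gli3 and Boc passed the filter through glia, and the 3 Gli genes stood at 0.543 to 1.03 CPM in pontine cells. Glia numbered 25, 31 and 77 cells in the 3 controls, and their summed vessel markers reached 544 CPM. With the 10% mitochondrial limit their mean Gli3 was 29.4 instead of 46.7 CPM and Mycn 24.8 instead of 42.0 CPM. Granule progenitors exceeded the glia in Gli2 (log2 1.20), Boc (1.28) and Mycn (1.99), and only Ptch1 was lower (log2 −0.59), which makes 3 higher and 1 lower of 8, against 20.4% and 24.2% of all genes, 44.6% in all. The Ptch1 difference turned to log2 0.031 in the mutant libraries.

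**Figure D3:**
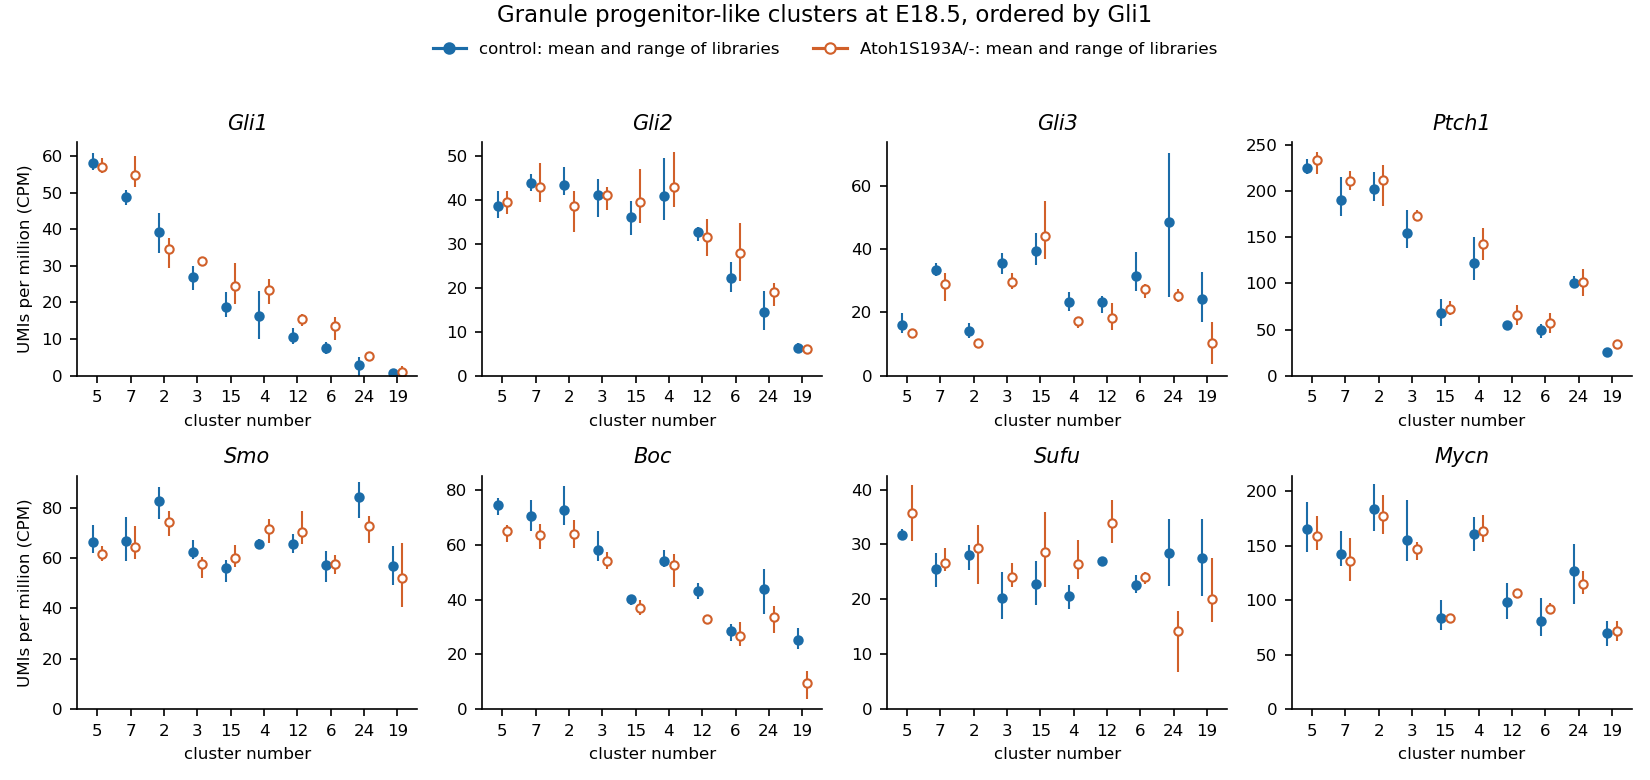
Level of 8 of the genes (CPM) in each E18.5 granule progenitor cluster, as the mean with the range over 3 libraries per genotype. Gli1 runs from 0.791 CPM in cluster 19 to 58.2 CPM in cluster 5 in controls, and Ptch1 from 25.4 to 225 CPM in the same clusters.

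The E18.5 granule progenitors were not uniform. Their 10 clusters are described with no test, since a cluster is formed from the cells' own expression. In controls Gli1 averaged 58.2 CPM in the cluster led by the mitotic genes Top2a, Cenpf and Ube2c, 48.8 CPM in that led by Hist1h1b and Pclaf of DNA replication, and 39.3 CPM in that led by Ccnd1 and Mcm6. Ptch1 was at 225, 191 and 203 CPM in these clusters. The clusters whose leading genes included Nts, Otx2 and Barx2 lay at the other end, with Gli1 at 10.7 and 0.791 CPM and Ptch1 at 54.7 and 25.4 CPM, and another led by Nts and Top2a had Gli1 at 7.57 CPM. Mitotic genes thus led both a cluster of high and one of low Gli1. Gli3 followed another order, since it was 15.9, 33.3 and 14.1 CPM in the 3 clusters highest in Gli1 and 31.6 CPM in the cluster led by Nts and Top2a. The granule progenitor clusters of E14.5 all held Gli1 at 0.195 to 0.454 CPM.

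Comparison of the genotypes asks whether the hypomorphic S193A allele altered the pathway genes within a population. Without the littermate pair as a block, edgeR's quasi-likelihood test called no member in any of 9 population and stage comparisons. Each comparison had 3 mutant and 3 control embryos, and 0.0% to 0.338% of all genes were called. The share was 0.0099% in E14.5 pontine progenitors, a single gene that was lower in mutants. It was 0.338% in E18.5 granule progenitors, with 0.133% of genes higher and 0.205% lower, and 0.0% in the other 7 comparisons. DESeq2, also without that block, called none. Of 55 member tests by edgeR without the block, 4 (7.27%) gave an unadjusted p below 0.05. That share was 3.50% among the 88490 gene tests in the same 9 comparisons. With the block, edgeR called 1 member, Ptch1 in E14.5 pontine progenitors, as given below.
In E14.5 pontine progenitors, Ptch1 was at 27.3, 52.8 and 36.1 CPM in controls and 46.3, 72.8 and 59.2 CPM in mutants 1, 2 and 3. The ranges overlapped, but the mutant was higher in 3 of 3 littermate pairs. The log2 change was 0.54 (interval 0.04 to 1.03, adjusted p = 1), and with the littermate pair as a replicate block it was 0.56 ± 0.12 (SE) with an adjusted p of 0.0236, a call that 0.841% of all genes passed in that fit. Under the same block 0.382% of all genes were called in E14.5 pontine cells, 1.01% and 1.54% in granule progenitors of E14.5 and E18.5, 0.0313% and 0.29% in granule neurons, 0.272% in E18.5 pontine cells, 0.0408% in glia and 0.646% in rhombic lip cells, with no member among them. At E14.5, controls 1 and 2 were processed with the older Cell Ranger release and all mutants with the newer one. Release and genotype thus cannot be fully told apart there. With the newer release alone, which leaves 1 control, the log2 change of Ptch1 in pontine progenitors was 0.61. In that fit Boc turned from −0.27 in the main fit to 0.52, and Mycn from −0.08 to 0.24. The genotype effect on Ptch1 did not differ by a called amount between granule and pontine progenitors (log2 −0.51, interval −1.25 to 0.22), and of 7 genes none was called, against 0.0282% of all genes. Pontine progenitors were also more numerous in mutants, with 353, 309 and 499 cells against 71, 113 and 83. Sufu in these cells, at 11.5, 11.97 and 9.99 CPM in mutants, was above all controls, and 8.46% of all genes separated the genotypes in 1 direction or the other.
In E18.5 granule progenitors, the mutants lay below all controls for Gli3, at 23.4, 21.6 and 24.7 CPM, and for Boc, at 48.5, 48.2 and 49.8 CPM, a separation in either direction that 9.96% of genes showed. Their log2 changes were −0.25 (interval −0.38 to −0.11, adjusted p = 0.25) and −0.18 (interval −0.30 to −0.06, adjusted p = 0.37). Gli1, at 30.3, 31.2 and 33.0 CPM in mutants, and Ptch1, at 144, 149 and 153 CPM, overlapped with controls (log2 0.15 and 0.13). At E14.5 Boc was below all controls in mutant granule progenitors, at 22.3, 27.2 and 25.0 CPM, where 7.54% of genes separated, and above all controls in mutant granule neurons, where 9.28% did. The genotype effect in granule progenitors was called different between stages for none of 8 genes, and for 0.0% of all genes.

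**Figure D4:**
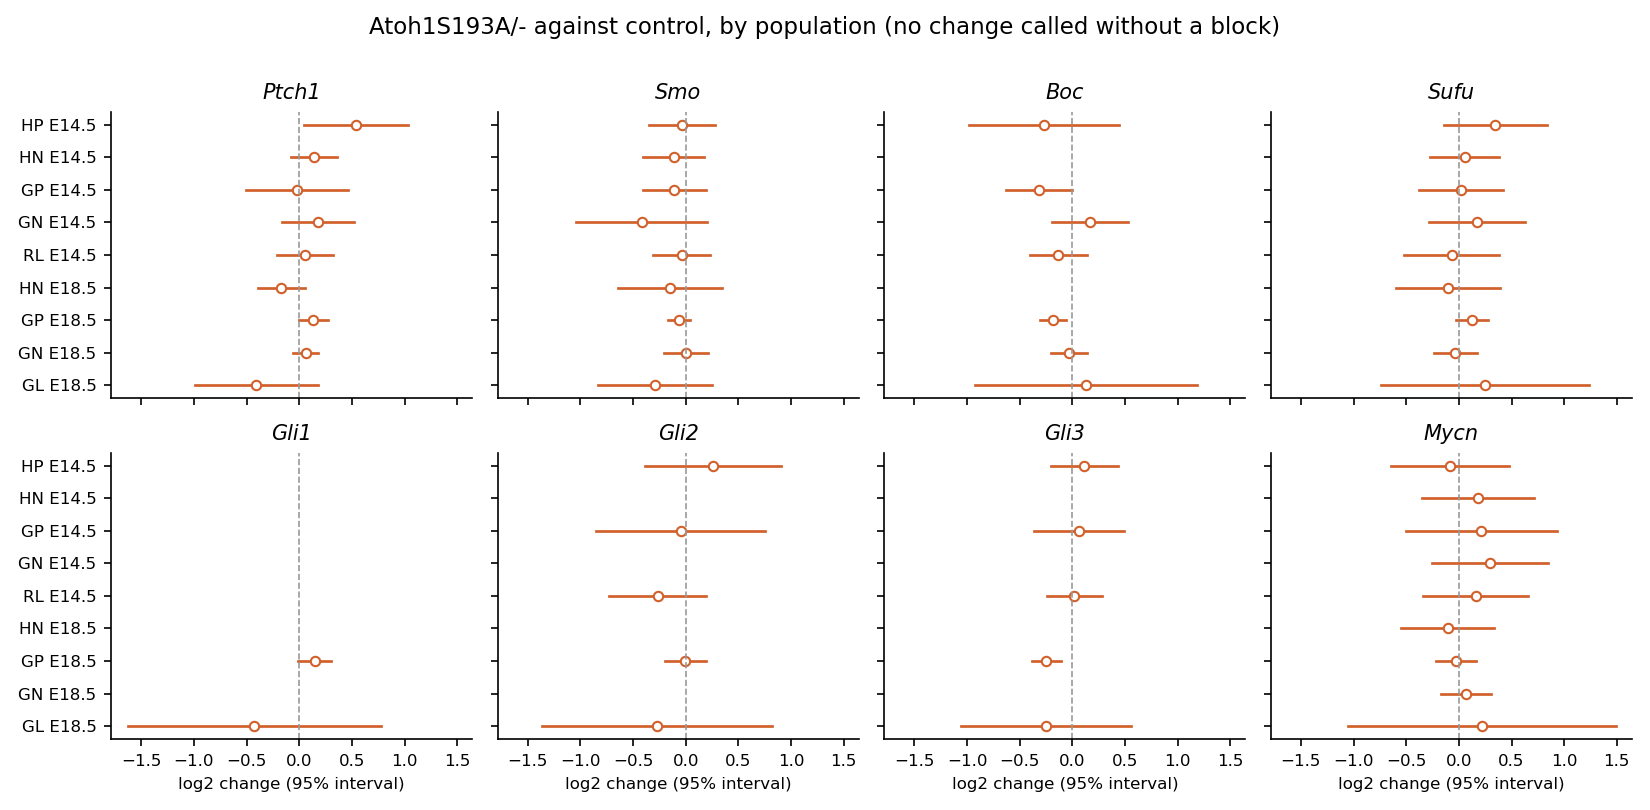
Log2 change of mutant against control for each tested gene in 9 population and stage comparisons named as in the plot of levels, with RL for rhombic lip cells, 95% confidence intervals as bars, and 3 embryos per genotype. The fits did not use the littermate pair as a block. The intervals of 4 of the 55 changes leave out 0, and the largest of these is that of Ptch1 in E14.5 pontine progenitors (0.54).

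At P5 the cells sorted from the dissected pontine nuclei held 7474 pontine neurons, 1430 oligodendrocyte lineage cells, 1130 microglia and 569 astrocyte-like cells, among others. Whether these glia and microglia descend from cells that expressed Atoh1 or were carried through the sort was not tested. Ptch1, the 1 tested gene at the filter on both sides, was lower in Hox-positive pontine neurons than in astrocyte-like cells, where 36.3% of all genes were lower and 36.7% higher, 73.1% in all, and with 2 pooled libraries the test borrows its spread from all genes. The neurons held 16.6 and 13.4 CPM of Ptch1 in libraries 1 and 2, against 214 and 172 CPM in astrocyte-like cells (log2 −3.87). Among genes that passed the filter on 1 side, Smo stood at 2.16 and 1.98 against 63.5 and 55.7 CPM and Gli3 at 0.456 and 0.549 against 26.8 and 23.8 CPM. Mycn passed through the neurons, at 10.1 and 8.76 CPM in neurons and 0.536 and 0.807 CPM in astrocyte-like cells. Gli1 was at 3.75 and 7.26 CPM in astrocyte-like cells and at 0.0477 and 0.0305 CPM in neurons. The few granule progenitors of library 2 held 24.9 CPM of Gli1 and 125 CPM of Ptch1.
Hhip, the decoy receptor that binds hedgehog ligands, was low in every embryonic neuronal population and was found mainly in the oligodendrocyte lineage of P5. It stood at 92.5 and 109 CPM there, against 2.41 and 4.03 CPM in astrocyte-like cells, and passed the filter through that lineage alone. In this comparison, added after the data were seen, none of the 3 genes at the filter on both sides was higher in the oligodendrocyte lineage and 2, Ptch1 and Smo, were lower (log2 −1.83 and −2.80), against 30.4% and 31.6% of all genes, 62.0% in all, and Gli1 had 0 UMIs in both libraries of the lineage. By cluster, the 2 libraries ran from 4.85 and 6.94 CPM of Hhip in the cluster led by Pdgfra and Olig1 of oligodendrocyte precursors to 65.0 and 70.9 CPM in that led by Bcas1, Enpp6 and Gpr17 of newly formed oligodendrocytes. The cluster led by Mobp and Mbp held 37.7 to 65.1 CPM, and the one with Ugt8a and Nfasc among its leading genes held 214 to 221 CPM. Ptch1 was also highest in that last cluster, at 86.8 to 105 CPM, where Smo was at 1.599 to 2.02 CPM.

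**Figure D5:**
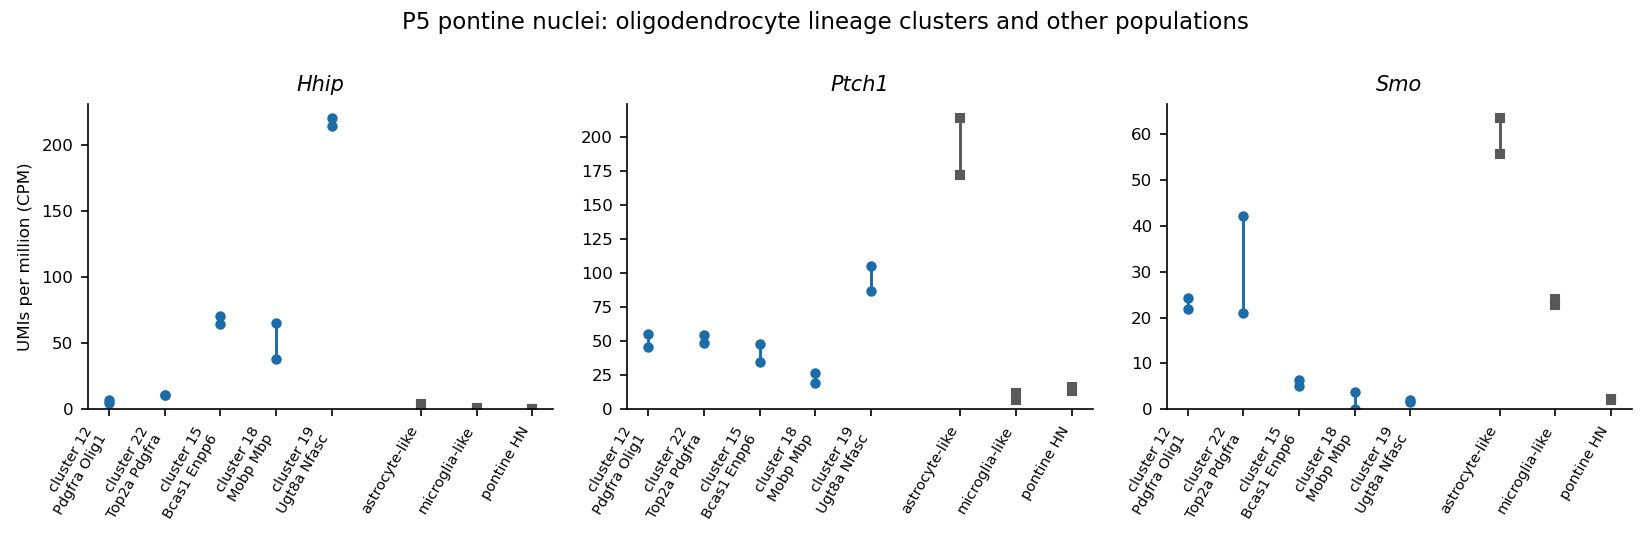
Level of Hhip, Ptch1 and Smo (CPM) in the P5 oligodendrocyte lineage clusters, astrocyte-like cells, microglia and pontine neurons, with 1 point per library. Hhip rises to 214 to 221 CPM in the Ugt8a and Nfasc cluster, whereas Smo is highest in astrocyte-like cells at 55.7 and 63.5 CPM.

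Across 18 stage and population means, the genes with the most similar pattern to each member among 10669 genes were found by Pearson's r of log2(CPM + 1), given here as a description. The points share libraries and normalisation. Gli1 was most like Ptch1, Fbln2 and Actn1 (r = 0.83 for each), Gli2 most like Tmem209 and D3Ertd751e (0.91), and Gli3 most like Yap1 (0.97). Ptch1 was closest to Plod2 (0.91), Smo to Cand2 (0.95), Boc to Ccnd2 (0.89), Sufu to Phf21a (0.96), Mycn to Ppp4r2 (0.94) and Hhip to Nkx2-2 (0.94), a transcription factor of the oligodendrocyte lineage. Gli2 correlated equally with Gli1 and with Gli3 (0.80).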

How the data were processed

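The authors deposited 1 matrix of raw UMI counts per library, made with 10x 3′ v3.1 chemistry, NovaSeq sequencing and Cell Ranger against mm10, release 3.1.0 for E14.5 controls 1 and 2 and 5.0.1 for the other 12 libraries per the file headers. Barcodes were kept with at least 1000 genes and under 5% mitochondrial UMIs, a looser mitochondrial limit than the study's methods state, and the top 7.5% of Scrublet scores per library were removed as doublets (scanpy 1.11.5). Libraries shared 0.0587% to 0.3463% of barcodes with another. Cells were clustered per stage (Leiden, resolution 1) without the pathway genes, and clusters were named from marker lists with CPM limits set after the marker means were seen. Pontine substates were cut at 100 and 1000 CPM of cluster Mapt.

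Counts were summed per library and population and tested with edgeR 4.0.16 (quasi-likelihood, TMM, R 4.3.3) over genes with a UMI in 10% of the cells of either side, with Benjamini-Hochberg adjustment over all genes tested. Population contrasts had the embryo as a block, and genotype and stage contrasts had none. DESeq2 1.42.0, other filters, left-out libraries, mitochondrial limits and resolutions were alternatives. Littermate pairing comes from the study's methods, and deviations from group means correlated at 0.301 to 0.736 for the same replicate number and −0.587 to 0.175 for different numbers. Embryos are separate animals, and the limits for counts of 0 (3 UMIs) and intervals of single values cover counting error only. In simulated data for the comparison of stages in granule progenitors, 55.2%, 98.5% and 100% of 1.5-fold, 2-fold and 4-fold changes were recovered (66 or 67 changed genes each, among 16831). For the difference of stage effects, 59.7%, 80.6% and 100% were (among 18129). For the genotype in E18.5 granule progenitors, 62.7%, 97% and 100% were (among 17484). Changed genes were drawn only from genes with more UMIs than the filter of 10 required, and all other genes had no change. These rates therefore do not cover genes of low counts such as Hhip. The named members, the other pathway genes and the tests were chosen with earlier results of these data known. The genes named beyond the members are the largest called changes of a listed set, or were chosen after their values were seen for clusters. Promoter windows came from RefSeq tables on GRCm38.p6, the build named mm10.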

Additional observations from a re-analysis of the deposited data

Results flagged for a closer look

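The change from E14.5 to E18.5 differed between granule progenitors and Hox-positive pontine cells of control embryos, by a test of the difference itself (edgeR's quasi-likelihood test, adjusted over 11111 genes, of which 50.9% differed). Ptch1, Smo, Sufu and Mycn passed the filter on low values in both populations, and their differences on the log2 scale were 2.52, 1.71, 1.26 and 1.11, each more positive in granule progenitors. For Smo and Mycn the difference combines a fall in pontine cells with a small or uncalled change in granule progenitors, and for Ptch1 it comes from the rise in granule progenitors. Gli1, Boc, Gli3 and Gli2 passed the filter through granule progenitors alone. Their differences of 2.79, 1.92, 1.84 and 1.72 are given as values and add no support. Cluster means of Mapt and Mki67 also changed with stage, with values given in the results, and their part in the differences was not tested.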

How the results depend on the processing

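Of 866 log2 changes recomputed under the alternatives, for genes called in the main analysis and for Ptch1 by genotype in pontine progenitors and in its comparison with granule progenitors, 805 kept their direction and their side of the threshold, 59 were no longer called, 1 turned direction and 1, Ptch1 by genotype in pontine progenitors, became called. Changes of genes not called in the main analysis are not among these, and some of their gains are given in the results. Counts of called genes, here over all members tested and so including those at the filter on 1 side, were within 1.5 times the main count in 303 of 312 cases. The exceptions were as follows, and their cause was not tested beyond what each alternative does by construction. Over leave-one-out settings, pontine progenitors against pontine cells at E14.5 gave 3 to 6 called genes, with 3 without control replicate 2 and 6 in the main analysis. With genes of 10 UMIs or more tested, which adds members, granule progenitors against glia at E18.5 gave 7, the stage change in pontine cells 5, and oligodendrocyte lineage against astrocyte-like cells 8. The mutant libraries gave 4 for the stage change in pontine cells. Pontine progenitors against rhombic lip cells gave 1 with DESeq2, 1 with the 10% mitochondrial limit and 1 at resolution 2, and Ptch1 was called higher there in mutant libraries (log2 0.80). The Ptch1 difference between granule progenitors and glia at E18.5 was log2 0.031 in mutant libraries, against −0.59 in controls. Littermate pairing as a replicate block gave 1 called gene for the genotype in pontine progenitors, Ptch1 (log2 0.56, adjusted p = 0.0236), and changed no other genotype call of a member. In E14.5 pairs 1 and 2 the control and the mutant also differed in Cell Ranger release. Embryos of different stages share a number but no litter, so the same block is no pairing for the stage changes, where it moved 1 call, Sufu in pontine cells (log2 −0.46). No test was possible for pontine progenitors at E18.5, where no such cluster was found, nor with a P5 library left out. Of 81 mean levels of at least 10 CPM, 4 moved by over 1.5 times at resolution 2 and 2 with the 10% mitochondrial limit, all in glia, and none after TMM scaling. Depth limits Gli1 at E14.5, with 6 UMIs or fewer per control library in granule progenitors and in non-dividing pontine cells.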
